A study of Mus musculus with 30 samples.

Results

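Forelimb buds collected 18 h after an injection of Wnt-C59 (C59) were compared with forelimb buds collected 18 h after DMSO, gene by gene across the autosomes. All 3 C59 libraries and all 3 DMSO libraries of that time were used, 6 of 30 in the series. The limb buds came from wild-type Swiss Albino mouse embryos, a strain that is not inbred, whose mothers were injected into the abdominal cavity at embryonic day E10.5. C59 is a small molecule that blocks porcupine, the enzyme that puts a lipid on WNT proteins before secretion. It was given in a solution that also held DMSO, methylcellulose and Tween-20. The controls received DMSO in buffered saline, without methylcellulose or Tween-20, so the solutions differed in more than C59. The compound reached the embryo through the mother, so exposure was not limited to the limb, and a library holds all cell types of the limb bud. C59 embryos were staged by the time since injection and by limb bud size and shape against wild type, because somite number itself depends on WNT. The study placed 18 h in the recovery from the inhibitor, after the block at 6 and 12 h and before 24 h. The neighbouring comparisons at 12 h and 24 h, of 6 libraries each, are used only to show where 18 h differs. The study states that the RNA of a library came from 1 pair of forelimb buds, though some libraries held transcripts of both sexes (given below). The replicates were different embryos of several litters, and the p-values measure the spread between these libraries.

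WNT proteins bind Frizzled and LRP receptors, β-catenin then enters the nucleus, and TCF/LEF factors switch on target genes, several of which (*Axin2*, *Nkd1*, *Notum*, *Znrf3*) dampen the pathway again. In the limb bud, WNT from the ectoderm keeps the underlying mesenchyme proliferating and holds back cartilage. It also sustains FGF signals of the apical ridge, BMP signals and the posterior organizer that secretes SHH, and muscle precursors migrate into the bud from the somites.

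The DMSO libraries held 18331160, 38974885 and 19373520 counts and the C59 libraries 21756444, 19990377 and 20779664. One library stood apart. C59 replicate 3 differed from the other C59 libraries by 47.8 and 40 (chi-square per degree of freedom of its counts over genes), against 4.33 between C59 replicates 1 and 2 and 3.86 to 17.6 between DMSO libraries. Its deviation followed base composition. With genes split into 5 equal bins of transcript GC content, its median lay 0.48 below the other C59 libraries on the log2 scale in the lowest bin (33.4 to 45.5% GC) and 0.29 above them in the highest (56.5 to 75.6%). The biological coefficient of variation, the spread between replicates beyond counting error, was 12.5% at 18 h and 7.77% without that library, against 6.68% at 12 h and 7.52% at 24 h. DMSO replicate 1 deviated less, with transcripts of the longest of 5 length bins 0.10 below the other DMSO libraries. Embryo sex was mixed between libraries, with a summed FPKM of 4 Y-linked genes of 0.094, 21 and 0.0195 in DMSO and 0.0682, 19.7 and 24.2 in C59. *Xist*, a transcript of female cells, was at 72.1, 42.2 and 87.1 FPKM in DMSO and at 111, 52.9 and 0.0639 FPKM in C59. DMSO replicate 2 and C59 replicate 2 thus held transcripts of both sexes. The tissue label was checked against 9 markers of limb mesenchyme, whose levels added up to between 2010 and 2340 CPM in every library, while markers of liver and heart together stayed between 0.3 and 1.24 CPM. The hindlimb markers *Tbx4* and *Pitx1* together gave 14.7 to 18.5 CPM.

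**Figure D1:**
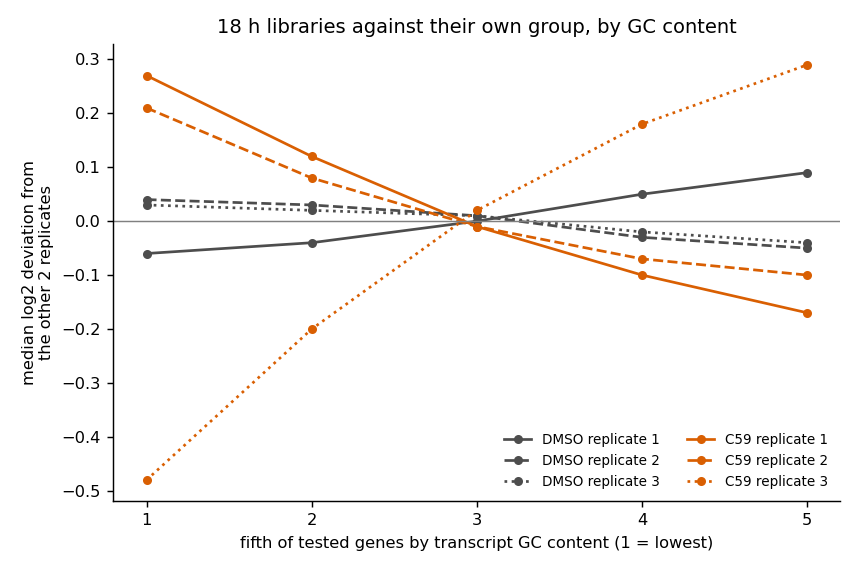
The 18 h libraries compared with the other 2 of their own group, with the median log2 deviation on the vertical axis and 5 bins of the tested genes by transcript GC content on the horizontal axis. C59 replicate 3 runs from -0.48 in the lowest bin to 0.29 in the highest, and every DMSO library stays between -0.06 and 0.09.

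Genes are described as called if the quasi-likelihood test of edgeR gave a Benjamini-Hochberg (BH) adjusted p under 0.05 and the log2 fold change, C59 relative to DMSO, exceeded 1 in size. They are said to have risen or fallen if the adjusted p alone met its threshold. At 18 h 173 of 13413 tested protein-coding genes were called (1.29%), 74 higher in C59 (0.552%) and 99 lower (0.738%). By the adjusted p alone 464 genes rose (3.46%) and 485 fell (3.62%), together 7.08%. Counts of list members that rose or fell are to be read against these shares. At 12 h 660 of 13324 genes were called (4.95%) and at 24 h 112 of 13675 (0.819%). Without C59 replicate 3 there were 194 calls, 95 higher and 99 lower, and 2199 genes past the adjusted p. Without DMSO replicate 3 there were 77 calls and without DMSO replicate 1 there were 92. Of 79 named genes past the adjusted p, 41 were past it in all 6 fits that left out a library, and for called genes that were not, the libraries or the number of such fits are given.

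The genes called at 12 h were read in the independent libraries of 18 h. Of 470 genes called higher at 12 h (3.53% of those tested then), 447 were tested at 18 h, 347 still had a positive difference, 87 rose and 26 were called higher, while 5 were called lower. Their median log2 fold change went from 1.30 at 12 h through 0.38 at 18 h to 0.04 at 24 h. Of 190 genes called lower at 12 h (1.43%), 178 were tested at 18 h, 141 had a negative difference, 71 fell, 32 were called lower and none was called higher. Their medians were -1.31, -0.46 and -0.04. Having been selected on their 12 h values, such genes tend to be smaller in any second reading. The effect itself differed between 12 h and 18 h by the adjusted p (interaction contrast, which shares the 12 h libraries with the selection) for 150 of the genes called higher, all downward, and upward for 106 of those called lower.

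**Figure D2:**
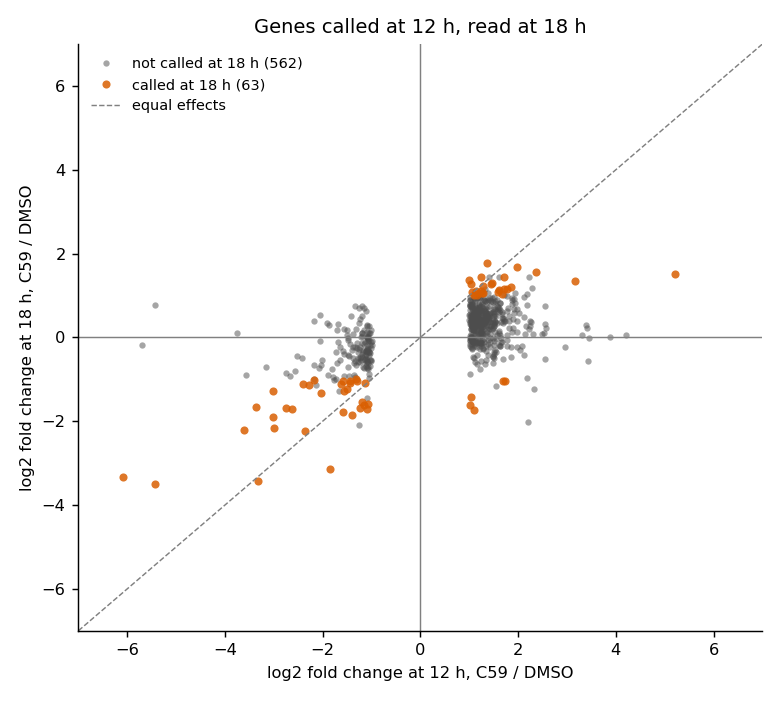
Each point is 1 of 625 genes called at 12 h and tested at 18 h, with its log2 fold change (C59 over DMSO) at 12 h on the horizontal axis and at 18 h on the vertical axis. Of these genes 605 lie nearer to 0 at 18 h than at 12 h, and the 63 called again at 18 h are drawn in orange.

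The 173 genes called at 18 h were also set against all 15 DMSO libraries of the series, which cover control limb buds over these 24 h. The C59 mean of 54 of the 74 genes called higher lay above every DMSO library of any time, and the mean of 65 of the 99 called lower lay below every one. The other 20 and 34 lay within the range of control limb buds at some time. The DMSO libraries of 18 h are among the 15 and had served to call these genes, which favours means outside them. The share over all tested genes was not computed, so these counts cannot show whether C59 limb buds left the control range.

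Transcription of WNT feedback targets was close to the control level for some members and low for others. *Axin2* (chr11:108920349-108950783, mm10) stood at 114, 111 and 113 CPM, a level scaled to library size, in the DMSO libraries and at 109, 92.1 and 102 CPM in the C59 libraries. The groups did not overlap, as for 34.0% of all tested genes, and the difference of -0.16 ± 0.09 (log2, SE) did not pass the test (edgeR, BH-adjusted p = 0.333), though it did when all 30 libraries shared the spread estimate (-0.17, edgeR, BH-adjusted p = 0.0391). *Notum*, which encodes a secreted enzyme that strips the lipid from WNT, gave 6.05, 5.94 and 5.47 CPM in DMSO and 6.25, 5.06 and 7.52 CPM in C59. Those libraries overlapped, whereas the effect on *Notum* had been -3.75 at 12 h, a change of 3.87 ± 0.34 on the log2 scale (edgeR interaction contrast, BH-adjusted p = 1.53e-05).

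*Dkk1* (chr19:30545863-30549665) was still low. Its product binds LRP co-receptors and blocks WNT reception. The DMSO libraries held 12.87, 10.48 and 8.95 CPM and the C59 libraries 2.13, 2.32 and 2.39 CPM. Every C59 library was far below the lowest control, the log2 fold change was -2.23 ± 0.18 (edgeR, BH-adjusted p = 0.000939), and this was nearly the value of 12 h, -2.37. By 24 h the effect was -0.63, a change of 1.60 (edgeR interaction contrast, BH-adjusted p = 0.00132). *T*, encoding the transcription factor brachyury, had 1.83, 1.12 and 1.44 CPM in DMSO and 0.582, 0.671 and 0.498 CPM in C59. Its call (-1.28 ± 0.32, edgeR, BH-adjusted p = 0.0444) was lost without any 1 of the 6 libraries, with BH-adjusted p up to 0.151 in edgeR.

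Of the 15 feedback targets on the list, which is largely composed of genes that the study itself had picked from these libraries, 5 fell at 18 h (*Dkk1*, *T*, *Tcf7*, *Apcdd1* and *Nkd2*) and none rose. Their median was -0.26, against -1.45 at 12 h and 0.02 at 24 h, with 0.00 over all tested genes at 18 h. *Tcf7* (-0.76), *Apcdd1* (-0.48) and *Nkd2* (-0.45) kept a part of the 12 h effect, which had been -1.80, -2.42 and -2.52, and *Nkd1* was at 0.02. The effect moved upward from 12 h to 18 h by the adjusted p in 12 of the 15 members, where 8.49% of all genes changed in either direction. From 18 h to 24 h 4 members moved upward, where 6.96% of genes changed. The number of members that fell was between 1 (without DMSO replicate 1 or replicate 3) and 4 (without C59 replicate 3) when 1 library was left out.

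Some ligand genes were higher in C59. Of 16 genes for WNT ligands and their secretion, 5 rose and none fell, with a median of 0.29 at 18 h, 0.28 at 12 h and 0.26 at 24 h. *Wnt4* gave 22, 22.7 and 23.3 CPM in DMSO and 37.5, 39.7 and 45.6 CPM in C59. The libraries did not overlap and the log2 fold change was 0.85 ± 0.11 (edgeR, BH-adjusted p = 0.00369). *Wnt9b* (0.91, not without DMSO replicate 3), *Wnt7b* (0.71), *Wnt3* (0.68) and *Wnt11* (0.59) were the others that rose. *Wnt7b*, *Wnt3*, *Wnt4* and *Wnt9b* are made by ectoderm, whose markers were also higher in C59 (given below). Their part in this result was not tested. *Wls*, the carrier that brings WNT proteins to the cell surface, was at -0.02 and *Wnt5a*, the main mesenchymal ligand, at -0.13. Between 3 and 5 of these members rose when a library was left out.

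Among receptors and R-spondins, which are secreted enhancers of WNT reception, *Rspo1* and *Fzd10* fell, and 2 members fell in each of the 6 fits without a library. *Rspo1* (chr4:124986430-125009099) was at 17.5, 16.8 and 15.9 CPM in DMSO and at 6.88, 8.88 and 8.97 CPM in C59. The highest C59 library was well below the lowest control, with a log2 fold change of -1.02 ± 0.14 (edgeR, BH-adjusted p = 0.00478) after -2.18 at 12 h. *Fzd10* had 81.5, 89.9 and 99.3 CPM against 56.8, 48.6 and 56.2 CPM, a log2 fold change of -0.74 ± 0.11 (edgeR, BH-adjusted p = 0.00629). *Fzd9* was the member that rose (0.89), where 3.46% of all genes rose, but not without DMSO replicate 2 or 3 (edgeR, BH-adjusted p up to 0.0711). The remaining 17 of 20 did not pass, among them *Lrp6* (0.16), *Lgr4* (-0.03) and *Rspo2* (0.23). Without C59 replicate 3 there were 7 members that rose.

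*Sfrp2* (chr3:83766321-83774316) encodes a secreted protein that binds WNT. Its levels were 131, 125 and 115 CPM in DMSO and 238, 263 and 253 CPM in C59. All C59 libraries were far above all controls, with a log2 fold change of 1.02 ± 0.09 (edgeR, BH-adjusted p = 0.00133) that was 1.16 at 12 h and 0.26 at 24 h. Of 9 secreted antagonists tested, 3 fell (*Dkk1*, *Dkk2* and *Sostdc1*) and 2 rose (*Sfrp2* and *Sfrp1*). Apart from *Dkk1* and *Sfrp2* the effects lay between -0.57 and 0.42, and when a control library, C59 replicate 1 or C59 replicate 2 was left out 1 member fell.

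**Figure D3:**
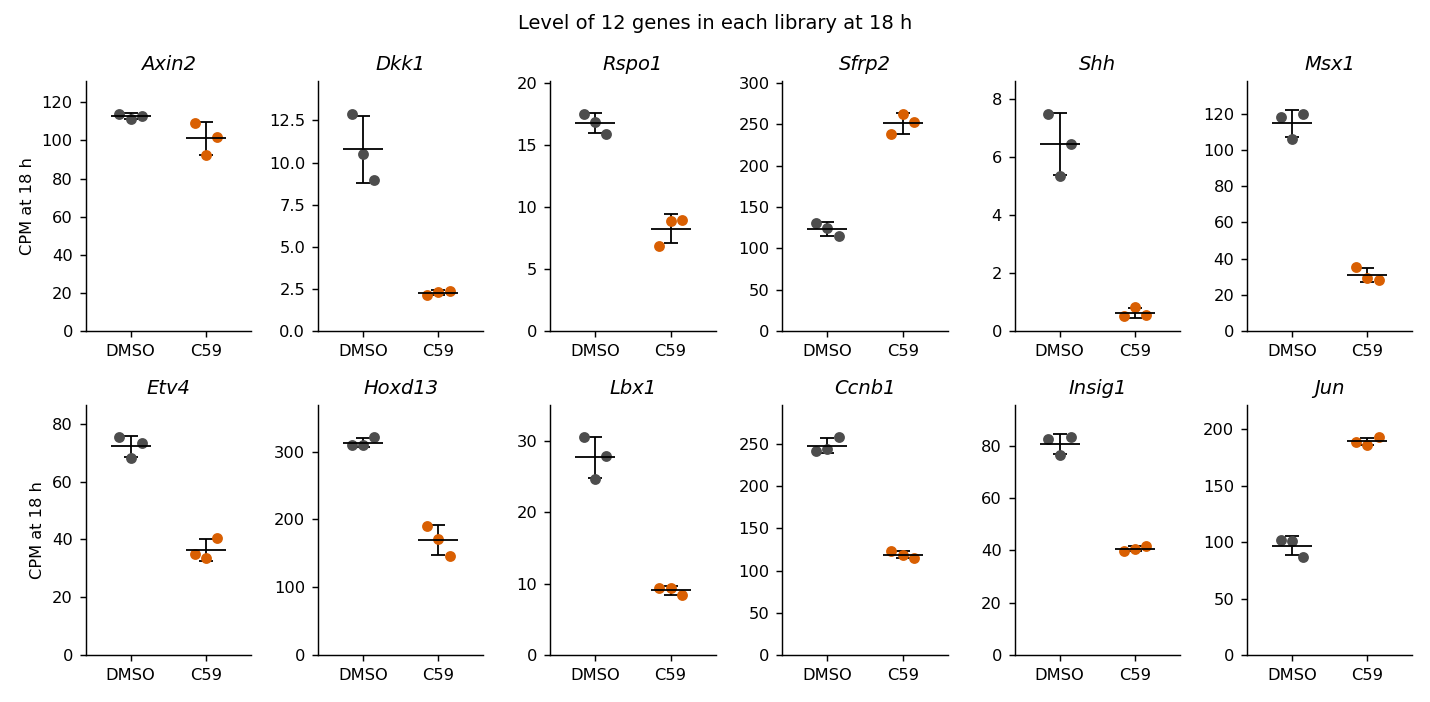
Levels of 12 genes in CPM (vertical axes, from 0, scaled per gene) in the 3 DMSO libraries (grey) and 3 C59 libraries (orange) at 18 h, with bars for mean and SD. *Axin2* lies near the control level (109, 92.1 and 102 CPM), *Dkk1*, *Shh*, *Msx1* and *Lbx1* lie far under it, and *Sfrp2* and *Jun* lie above it.

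*Shh* (chr5:28456815-28467256), the signal of the posterior organizer that sets digit identity and number, had the largest fold reduction of the signaling genes listed. The DMSO libraries held 7.49, 5.36 and 6.46 CPM and the C59 libraries 0.533, 0.826 and 0.548 CPM. Each C59 library was below 1 CPM, and the log2 fold change was -3.32 ± 0.25 (edgeR, BH-adjusted p = 0.000623). It had been -6.09 at 12 h, so that the effect moved by 2.78 (edgeR interaction contrast, BH-adjusted p = 0.00517). Both groups shifted in this interval. On a scale set over all 30 libraries, the DMSO mean went from 12.2 ± 1.82 (SD, n = 3) CPM at 12 h to 6.29 ± 1.03 at 18 h and 0.898 ± 0.458 at 24 h. The C59 mean was 0.179 ± 0.122, 0.614 ± 0.161 and 0.841 ± 0.554 CPM at these times.

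Genes that respond to SHH were lower as well. *Gli1*, a transcription factor switched on by the pathway, gave 58.9, 42.4 and 46.6 CPM in DMSO and 22.8, 25.8 and 32 CPM in C59, a log2 fold change of -0.87 (edgeR, BH-adjusted p = 0.0155) after -0.09 at 12 h. *Hhip*, encoding a cell surface protein that binds SHH, had 5.44, 7.06 and 6.68 CPM against 2.71, 3.72 and 2.19 CPM. In both genes the groups did not overlap. *Hhip* was called (-1.16 ± 0.22, edgeR, BH-adjusted p = 0.0171), with 0.10 at 12 h and a change of -1.26 (edgeR interaction contrast, BH-adjusted p = 0.0141), but not without DMSO replicate 2 or 3 (edgeR, BH-adjusted p up to 0.0832). The receptor gene *Ptch1* (-0.52) fell too, and did so in 2 of the 6 fits without a library. *Gli2* (0.54, not without DMSO replicate 1 or 3) and the co-receptor gene *Cdon* (0.41) rose, and *Smo*, *Gas1*, *Disp1* and *Hand2* lay between -0.04 and 0.10. In all 5 of 13 hedgehog genes fell and 2 rose, and 1 to 5 fell when a library was left out, the lowest without DMSO replicate 3. The list median was 0.05 and changed sign to -0.11 with offsets for GC content and length.

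Transcripts downstream of FGF were still lower. *Etv4* (chr11:101769742-101785371), an ETS factor induced by FGF through ERK, gave 75.3, 68.3 and 73.2 CPM in DMSO and 34.9, 33.6 and 40.6 CPM in C59. All C59 libraries were well below all controls (log2 fold change -0.99 ± 0.10, edgeR, BH-adjusted p = 0.00194), after -2.18 at 12 h and before 0.22 at 24 h. *Spry4* (-0.53), *Dusp6* (-0.48) and *Etv5* (-0.42), which encode inhibitors of ERK signaling or an ETS factor, were the other 3 of 13 feedback genes that fell, and none rose. Their median was -0.28, against -0.59 at 12 h and 0.04 at 24 h, and 7 of the 13 effects moved upward from 12 h to 18 h. Without C59 replicate 3 there were 6 members that fell, but without C59 replicate 2 or any control library only 1, *Etv4*.

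Of 13 FGF ligands and receptors 3 fell and 3 rose, and 1 to 4 fell when a library was left out, the lowest without C59 replicate 2 or any 1 control. *Fgf8*, the main ridge ligand, was at 15, 13.1 and 16 CPM in DMSO and at 11.1, 7.02 and 8.77 CPM in C59. Its groups did not overlap, and the difference (-0.71 ± 0.17, edgeR, BH-adjusted p = 0.0432) had been -3.17 at 12 h, a change of 2.47 (edgeR interaction contrast, BH-adjusted p = 0.000273). The *Fgf8* difference did not pass without C59 replicate 2 or any control library (edgeR, BH-adjusted p up to 0.173). *Fgfr4*, a receptor gene of muscle precursors, had 24.1, 19.2 and 18.6 CPM against 9.21, 10.48 and 11.71 CPM. It fell by 0.98 on the log2 scale (edgeR, BH-adjusted p = 0.00645) in every fit without a library, and it had been higher in C59 at 12 h (0.54). *Fgf12*, an intracellular family member near 1 CPM in DMSO, was called higher (1.09, edgeR, BH-adjusted p = 0.0393), but passed in only 1 of the 6 fits that left out a library, the fit without C59 replicate 3. *Fgf9* (-0.70) fell, and *Fgfr2* (0.47) and *Fgfrl1* (0.41) rose.

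Transcription factors of the apical ridge and distal ectoderm were also lower. Of 9, *Sp9*, *Dlx2*, *Msx2* and *Dlx5* fell and *Trp63*, a general ectoderm factor, rose (0.49, lost in edgeR without any library but C59 replicate 3). The median was -0.52 at 18 h, -0.09 at 12 h and -0.14 at 24 h. *Sp9* gave 5.1, 4.54 and 3.59 CPM in DMSO and 2.23, 1.65 and 2.04 CPM in C59. It was called (-1.16 ± 0.22, edgeR, BH-adjusted p = 0.0161) but did not pass without DMSO replicate 1, DMSO replicate 2 or C59 replicate 2 (edgeR, BH-adjusted p up to 0.0686). For *Dlx2*, at 13.5, 13.8 and 14.1 CPM against 8.78, 7.28 and 6.23 CPM, the effect went from -0.07 at 12 h to -0.89 at 18 h (change -0.82, edgeR interaction contrast, BH-adjusted p = 0.0106). Without any 1 control library, 1 of the 9 fell.

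*Msx1* (chr5:37820485-37824583), a homeobox gene induced by BMP in distal mesenchyme, had the lowest p of the signaling genes. Its levels were 118, 106 and 120 CPM in DMSO and 35.5, 29.3 and 28 CPM in C59. No C59 library came near the control level, with a log2 fold change of -1.89 ± 0.12 (edgeR, BH-adjusted p = 0.000158). It had been -3.01 at 12 h and was -0.22 at 24 h, a change of 1.66 from 18 h (edgeR interaction contrast, BH-adjusted p = 2.79e-05). *Id2*, encoding an inhibitor of helix-loop-helix factors, gave 151, 131 and 126 CPM against 74, 80.4 and 53.5 CPM and fell by 0.97 on the log2 scale (edgeR, BH-adjusted p = 0.00804). *Id1* (-0.68) and *Msx2* (-0.60) fell as well, each only in some of the fits without a library (1 and 3 of 6). In all 4 of 9 BMP response genes fell and none rose, with a median of -0.47, against -0.07 at 12 h and 0.06 at 24 h. From 18 h to 24 h the effect moved upward in 5 of them. Between 2 and 5 members fell when a library was left out, the lowest without any 1 control.

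The ligands and antagonists of the BMP pathway were nearer to the control. Of 15, *Bambi* (-0.50) and *Bmp2* (-0.42) fell, in 1 of the 6 fits without a library each, and *Gdf5*, a joint gene, rose (0.80 ± 0.15, edgeR, BH-adjusted p = 0.0163; lost without DMSO replicate 1, DMSO replicate 3 or C59 replicate 2). *Grem1*, encoding the antagonist that links BMP to SHH and FGF, was at 50.2, 59 and 63.2 CPM in DMSO and 81, 69.5 and 67.6 CPM in C59. All C59 libraries were above the controls, but the difference of 0.34 ± 0.12 did not pass (edgeR, BH-adjusted p = 0.122). From -1.92 at 12 h this was an upward change of 2.26 (edgeR interaction contrast, BH-adjusted p = 5.08e-05). *Bmp4* was at -0.28 after -1.25, a change of 0.97 (edgeR interaction contrast, BH-adjusted p = 0.000846). *Bmpr1b* (0.14 after 1.23) and *Nog* (0.06 after 1.62) had effects that shrank from above.

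Several genes of the distal limb bud fell, though few were called. In the HoxA and HoxD clusters *Hoxd13*, *Evx2*, *Hoxd12* and *Hoxa11* fell and none of 20 rose. *Hoxd13* (chr2:74668310-74671599), which acts in digits, gave 309, 310 and 321 CPM in DMSO and 190, 171 and 146 CPM in C59, a log2 fold change of -0.89 ± 0.11 (edgeR, BH-adjusted p = 0.00328). The groups were far apart. *Hoxd12* (-0.68 ± 0.08, edgeR, BH-adjusted p = 0.00343) and *Evx2* (-0.82 ± 0.11, edgeR, BH-adjusted p = 0.00478), its neighbours on the chromosome, followed, and *Hoxd11* did not (-0.06, edgeR, BH-adjusted p = 0.799). Proximal members *Hoxd9* (0.22), *Hoxd8* (-0.21) and *Hoxa5* (-0.03) did not pass, and when a library was left out 3 to 5 members fell. Antisense transcripts overlap parts of these clusters, and the strand of counting is not given in the sources used here.

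Of 21 factors for anterior-posterior and distal pattern, 8 fell and *Mycn* rose (0.35, only in the fit without C59 replicate 3 among those that left out a library). *Lhx2*, a LIM homeobox gene that the distal mesenchyme needs to answer FGF, had 93.6, 86.3 and 85.9 CPM in DMSO and 44.9, 35.9 and 44.6 CPM in C59. It was called (-1.08 ± 0.11, edgeR, BH-adjusted p = 0.00187), near its 12 h value of -1.14. *Pax9* (chr12:56691767-56712822), a marker of the anterior margin, had 12.2, 11.3 and 11 CPM against 3.93, 4.54 and 4.98 CPM. No C59 library came near a control one in either gene. For *Pax9* the log2 fold change of -1.36 ± 0.14 (edgeR, BH-adjusted p = 0.00194) compares with 0.01 at 12 h, and the effect changed by -1.36 (edgeR interaction contrast, BH-adjusted p = 0.00217). *Lin28a* was called near 3 CPM (-1.09, edgeR, BH-adjusted p = 0.0366), in 2 of the 6 fits without a library. *Lhx9*, *Lin28b*, *Sall1* and *Tbx2* fell by 0.43 to 0.73 on the log2 scale, and without DMSO replicate 3 only 2 of the 21 fell. Among 20 proximal and retinoic acid genes, *Meis2* rose (0.40) and *Crabp1* fell (-0.91, in 1 of the 6 fits without a library). Over all tested genes 3.46% rose and 3.62% fell, so 1 member each way is near those shares. The other 18 members of this list lay between -0.24 and 0.42, and without C59 replicate 3 there were 7 members that rose.

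Cartilage genes were higher in C59. The chondrogenesis list, part of which the study took from these libraries, had 8 of 19 members that rose and none that fell. Its median of 0.48 at 18 h followed 1.18 at 12 h and preceded 0.34 at 24 h. Without C59 replicate 3 the median was 0.53 and 11 members rose, but without DMSO replicate 1 or 3 only 3 rose. *Col2a1* (chr15:97975602-98004695), encoding the main collagen of cartilage, gave 770, 706 and 641 CPM in DMSO and 1200, 1310 and 1130 CPM in C59. All libraries were apart, with a log2 fold change of 0.78 ± 0.10 (edgeR, BH-adjusted p = 0.00424). *Col9a2*, a collagen that decorates type II fibrils, had 137, 109 and 97.3 CPM against 195, 234 and 237 CPM (0.95 ± 0.14, edgeR, BH-adjusted p = 0.00629). *Col9a1* (0.76), *Cnmd* (0.81), *Matn4* (0.60), *Sulf1* (0.67, not without DMSO replicate 1 or 3) and the transcription factor genes *Sox5* (0.72) and *Sox6* (0.89) rose, while *Sox9*, their upstream factor, did not pass, at 260, 243 and 237 CPM against 342, 334 and 244 CPM. C59 replicate 3 was within the controls for *Sox9* and the other C59 libraries above them (0.32 ± 0.13, edgeR, BH-adjusted p = 0.183).

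Of 14 tendon and connective tissue genes, *Osr2* (0.95 ± 0.10, edgeR, BH-adjusted p = 0.00197), *Scx* and *Col5a1* rose and *Lum* fell. Without any 1 control library or C59 replicate 2 only 1 member rose. *Osr2*, a zinc finger gene of joint and connective tissue, gave 43, 37 and 41.6 CPM in DMSO and 73.9, 83.7 and 76.5 CPM in C59. *Lum* (chr10:97565128-97572703), encoding the collagen-binding proteoglycan lumican, had 66.4, 69.3 and 67.7 CPM against 25.8, 32.3 and 21.6 CPM. Both genes separated the groups. *Lum* was called (-1.35 ± 0.14, edgeR, BH-adjusted p = 0.00187) with -0.22 at 12 h, a change of -1.13 (edgeR interaction contrast, BH-adjusted p = 0.00468). *Kera*, the neighbour of *Lum* on chromosome 10 and a proteoglycan gene of the same family, was among the largest decreases of all genes. It gave 11.5, 11.8 and 10.8 CPM in DMSO and 1.55, 1.08 and 1.2 CPM in C59 (-3.15 ± 0.18, edgeR, BH-adjusted p = 0.000118).

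Muscle precursor genes fell, while none of the 20 genes on the sarcomere and neuromuscular list did. *Myh15*, a myosin heavy chain gene that is not on that list, was among the largest decreases (-3.5, given below). *Lbx1* (chr19:45232684-45235812), a homeobox gene of migrating precursors, had 30.5, 24.7 and 27.9 CPM in DMSO and 9.41, 9.34 and 8.37 CPM in C59. *Pax3*, which marks the same cells, had 8.65, 8.65 and 8.51 CPM against 3.05, 3.1 and 4.14 CPM. In both genes all C59 libraries were far below all controls, with log2 fold changes of -1.61 ± 0.12 (*Lbx1*, edgeR, BH-adjusted p = 0.000623) and -1.33 ± 0.17 (*Pax3*, edgeR, BH-adjusted p = 0.0036). *Myf5*, encoding an early myogenic factor (-1.13 ± 0.13, edgeR, BH-adjusted p = 0.00229), and *Met*, encoding the receptor that migrating precursors need (-1.07 ± 0.14, edgeR, BH-adjusted p = 0.00478), were also called. With *Eya1* (-0.76), 5 of 11 progenitor genes and regulators fell and none rose, and 5 or 6 fell when any library was left out. *Myod1* (-0.36), *Myog* (0.35) and *Mef2c* (0.38), which act later, did not pass. Of 20 sarcomere and neuromuscular genes *Myh3* (0.88), *Mylpf* (0.90), *Actc1* (0.80) and *Acta1* rose and none fell. *Acta1* was called (1.13, edgeR, BH-adjusted p = 0.0417) at 5.99, 6.4 and 6.08 CPM against 8.19, 12.9 and 19.6 CPM, but passed only without C59 replicate 1 or C59 replicate 3. No gene of the sarcomere list rose without C59 replicate 2, DMSO replicate 1 or DMSO replicate 3. *Myh7*, a myosin heavy chain gene outside the list, rose (2.08), but not without DMSO replicate 3. In whole limb buds fewer cells of a type and less RNA per cell cannot be told apart.

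**Figure D4:**
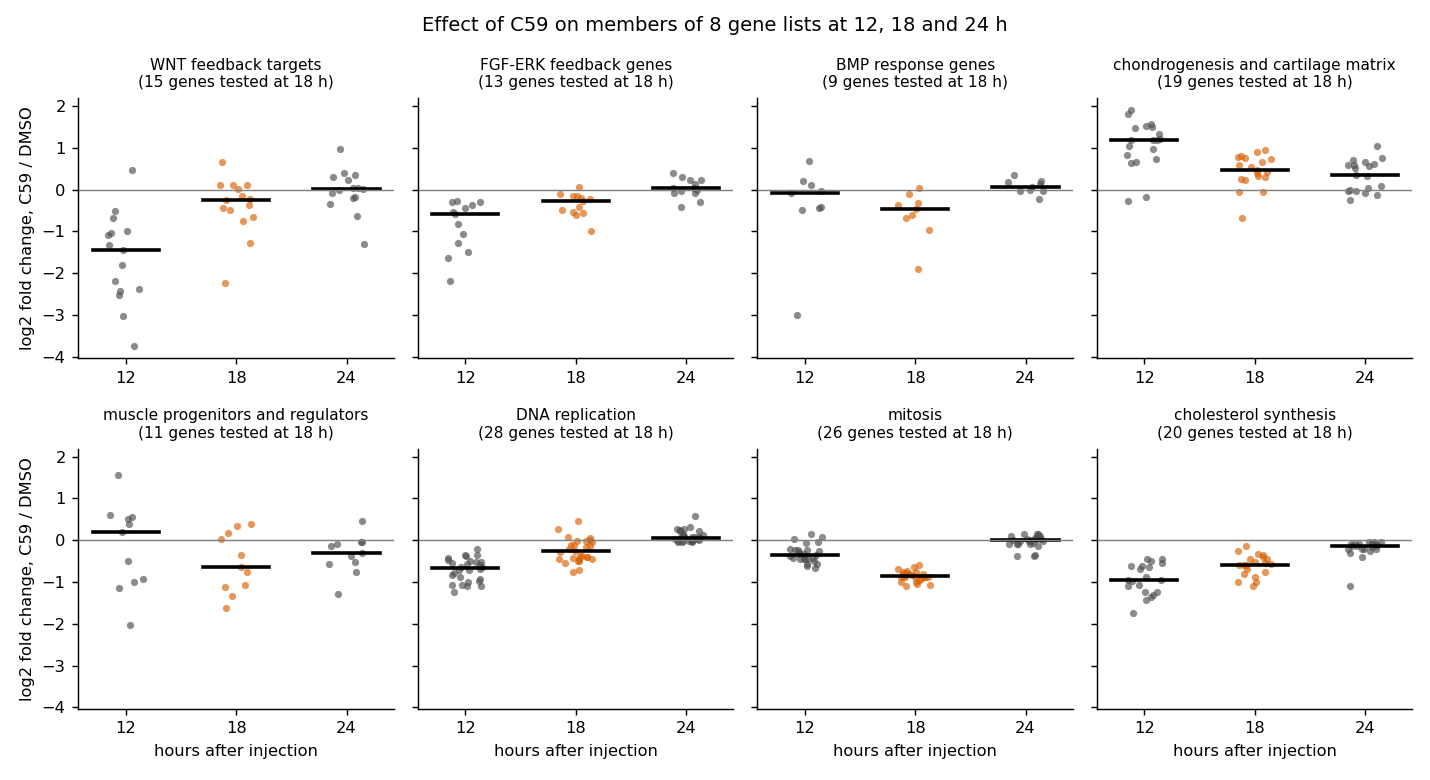
Log2 fold changes (C59 over DMSO, vertical axes) of the members of 8 gene lists at 12, 18 and 24 h after injection, with 18 h in orange and the median as a black bar. The mitosis median is lowest at 18 h (-0.86, against -0.35 and 0.01), and the WNT feedback median goes from -1.45 to -0.26 and 0.02.

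Genes of mitosis had their largest difference at 18 h. Of 26 tested, 23 fell and none rose, where 3.62% of all genes fell. The groups did not overlap for 24 of the 26, where 34.0% of all tested genes had groups without overlap. The median was -0.86 at 18 h, after -0.35 at 12 h and before 0.01 at 24 h. The effect moved down from 12 h to 18 h by the adjusted p in 14 members and up from 18 h to 24 h in 23. *Ccnb1* (chr13:100778650-100786570), encoding the cyclin that drives entry into mitosis, gave 242, 244 and 258 CPM in DMSO and 123, 119 and 115 CPM in C59. The C59 libraries lay close together and far below the controls, with a log2 fold change of -1.06 ± 0.08 (edgeR, BH-adjusted p = 0.00068). Its change was -0.50 from 12 h (edgeR interaction contrast, BH-adjusted p = 0.00889) and 1.12 to 24 h (edgeR interaction contrast, BH-adjusted p = 2.79e-05).

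The spindle checkpoint kinase gene *Bub1* had 153, 158 and 161 CPM in DMSO and 86.5, 80 and 54.7 CPM in C59 and was called (-1.09 ± 0.16, edgeR, BH-adjusted p = 0.00592). *Nusap1* (-1.04) and *Hmmr* (-1.01), both of the spindle, were called too, but *Hmmr* did not pass without any 1 control library, nor *Nusap1* without those or C59 replicate 2 (edgeR, BH-adjusted p up to 0.0973). C59 replicate 3 was the lowest library for *Bub1*, *Nusap1*, *Hmmr*, *Kif23* and *Kif11*. Mitosis transcripts have a median GC content of 46.1%, against 51.2% for all tested genes, and in C59 replicate 3 they lay 0.37 below the other C59 libraries at the median. Without that library 24 of the 26 fell, with a median of -0.80 and 1 call, and with offsets for GC content and length 24 fell, with a median of -0.80. Members with less deviation in that library fell as well, such as *Ube2c*, with 246, 238 and 249 CPM against 136, 132 and 131 CPM (-0.88 ± 0.08, edgeR, BH-adjusted p = 0.00145). *Aurkb*, *Plk1* and *Bub1b* differed by -0.88, -0.89 and -0.89. Between 15 (without DMSO replicate 3) and 24 members fell when a library was left out. *Cenpe*, *Cenpf* and *Mki67*, which have long transcripts, did not pass, and DMSO replicate 1 had their lowest control levels.

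DNA replication genes followed another course. Of 28, 9 fell and none rose at 18 h, with a median of -0.27, against -0.67 at 12 h and 0.06 at 24 h. The effect moved upward from 12 h to 18 h in 14 of them. *Rrm2*, encoding the regulated subunit of ribonucleotide reductase, was lowest, at 333, 318 and 350 CPM in DMSO and 220, 201 and 174 CPM in C59 (-0.75 ± 0.11, edgeR, BH-adjusted p = 0.00592). *Mcm10* (-0.72), *Pcna* (-0.44) and *Cdc45* (-0.49) fell also. The MCM helicase genes *Mcm2* to *Mcm7* lay between -0.26 and 0.07, and *Ccne1* (-0.04) and *Cdc6* (-0.22) did not pass after -1.09 and -1.24 at 12 h. When a library was left out 2 to 14 members fell, the lowest without any 1 control or C59 replicate 2 and the highest without C59 replicate 3. Of 12 genes for cyclins, CDK inhibitors and Myc factors, *Myc* fell (-0.44, not without any 1 control, C59 replicate 1 or C59 replicate 2) and *Mycn* rose (0.35), and the D cyclins lay between 0.14 and 0.34 without passing.

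Sequences before the start of 2 mitosis genes and 2 genes of cholesterol metabolism are shown because most members of both lists fell at 18 h. The courses of the lists differed, with medians at 12 h and 18 h of -0.35 and -0.86 for mitosis and -0.95 and -0.58 for cholesterol synthesis. The CCAAT box is bound by the factor NF-Y in promoters of many G2/M genes and, beside sites of SREBP, in promoters of cholesterol genes. The letters CCAAT were searched on both strands, which on the other strand read ATTGG, in the 250 bases before the start of each gene (RefSeq, GRCm38.p6). Promoters of 10542 of the 13413 tested genes were matched, and 36.2% of these held the letters. They were found in 19 of 22 matched mitosis genes (86.4%), 11 of 12 cholesterol genes (91.7%), 14 of 22 replication genes (63.6%) and 3 of 11 WNT feedback genes (27.3%). TTTGAA, an element of cell cycle promoters, searched on both strands like the next ones, was in 10.3% of all, in 8 of the mitosis genes (36.4%), in 4 of the replication genes and in 2 of the WNT feedback genes (18.2% of each list). TCACNCCAC, one form of the SREBP site, was in 0.939% of all and in 1 cholesterol gene, *Hmgcs1*. CTTTGAT, a form of the TCF/LEF site, was in 2.19% of all, in 1 WNT feedback gene and in 2 mitosis genes (9.09% of each list). The last of these shares most letters with TTTGAA but differs in the final base, so both cannot lie on the same bases. A match is a description of these letters, not a bound site, and a part of any such element in the decreases was not tested.

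The printed stretches, from which bases in annotated exons were trimmed, run 5′ to 3′ on the strand of the gene, and capitals mark CCAAT or ATTGG and, in *Hmgcs1*, also TCACCCCAC. Bub1 (chr2:127831866-127832109, minus strand), Hmmr (chr11:40733438-40733666, minus strand), Hmgcs1 (chr13:119690101-119690350, plus strand) and Insig1 (chr5:28071162-28071362, plus strand) held 2, 5, 3 and 1 matches to the CCAAT box.
Bub1: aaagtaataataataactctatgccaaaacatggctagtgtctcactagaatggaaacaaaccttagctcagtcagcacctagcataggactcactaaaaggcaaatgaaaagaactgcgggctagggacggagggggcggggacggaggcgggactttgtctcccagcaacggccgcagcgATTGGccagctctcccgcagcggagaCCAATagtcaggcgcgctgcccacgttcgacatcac
Hmmr: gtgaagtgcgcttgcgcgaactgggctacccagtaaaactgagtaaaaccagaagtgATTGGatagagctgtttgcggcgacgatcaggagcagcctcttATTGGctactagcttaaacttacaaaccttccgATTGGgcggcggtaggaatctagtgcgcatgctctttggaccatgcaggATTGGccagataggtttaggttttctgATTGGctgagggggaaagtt
Hmgcs1: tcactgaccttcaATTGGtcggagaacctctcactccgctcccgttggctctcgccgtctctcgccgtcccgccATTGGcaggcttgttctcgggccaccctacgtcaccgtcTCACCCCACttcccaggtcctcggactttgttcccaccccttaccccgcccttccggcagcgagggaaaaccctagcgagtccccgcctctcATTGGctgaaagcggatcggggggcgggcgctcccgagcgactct
Insig1: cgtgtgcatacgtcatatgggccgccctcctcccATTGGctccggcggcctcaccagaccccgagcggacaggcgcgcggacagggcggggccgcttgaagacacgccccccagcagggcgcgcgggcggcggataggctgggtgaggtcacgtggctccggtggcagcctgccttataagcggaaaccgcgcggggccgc

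Cholesterol synthesis was the other group in which most members fell. Of 20 tested, 13 fell and none rose, where 3.62% of all genes fell. The groups did not overlap for 18 of the 20, where 34.0% of all tested genes had groups without overlap. The median was -0.58, against -0.95 at 12 h and -0.14 at 24 h. *Insig1*, which encodes a sterol sensor of the endoplasmic reticulum and whose promoter is shown above, gave 82.5, 76.3 and 83.2 CPM in DMSO and 39.8, 40.6 and 41.6 CPM in C59. The C59 libraries lay close together, far below the controls (-0.99 ± 0.09, edgeR, BH-adjusted p = 0.00133). *Hmgcs1*, encoding the synthase that starts the pathway, had 228, 222 and 223 CPM against 136, 140 and 107 CPM (-0.81 ± 0.11, edgeR, BH-adjusted p = 0.00567). *Idi1* (chr13:8885501-8892451), encoding an isomerase of the isoprenoid step, was called at 37.4, 40.1 and 37.4 CPM against 18.7, 20.6 and 14.2 CPM (-1.10 ± 0.14, edgeR, BH-adjusted p = 0.00369), and so was *Msmo1* (-1.0 ± 0.16, edgeR, BH-adjusted p = 0.00822).

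*Sqle*, for an enzyme later in the pathway, fell by 0.60 on the log2 scale. *Srebf2*, for the factor that drives these genes, did not pass (-0.25, edgeR, BH-adjusted p = 0.174). The effect moved upward in 7 members from 12 h to 18 h and in 9 from 18 h to 24 h. Between 7 (without DMSO replicate 3) and 19 (without C59 replicate 3) fell when a library was left out, and 19 fell with offsets for GC content and length.

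**Figure D5:**
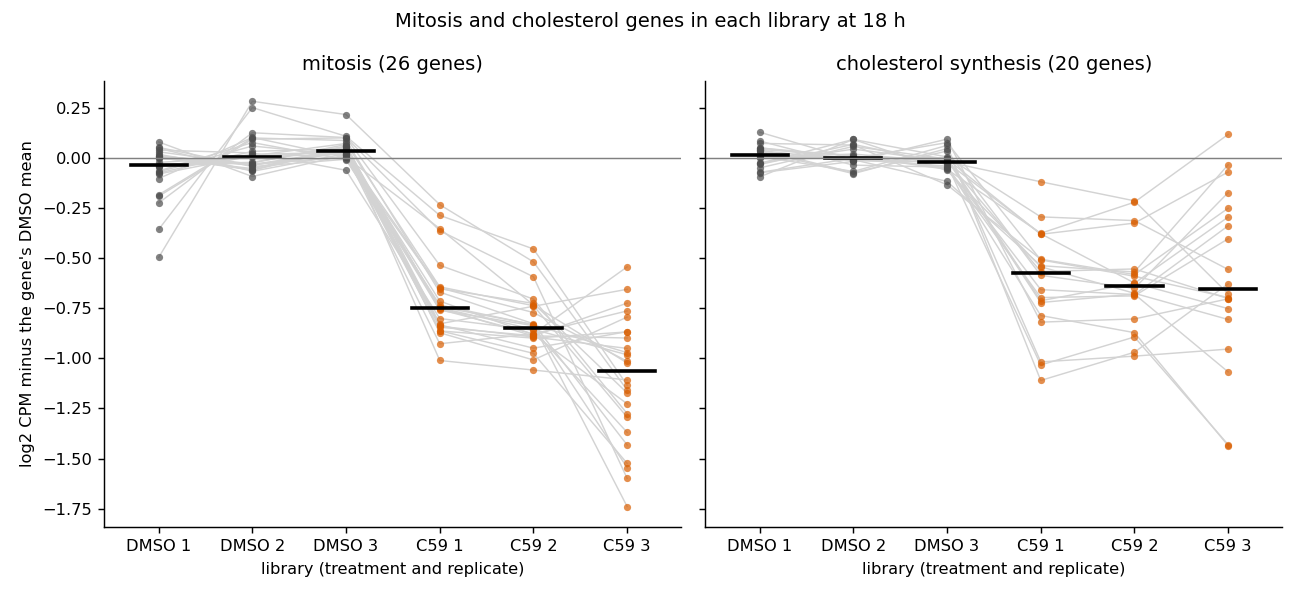
Each grey line is a gene of mitosis (left, 26 genes) or cholesterol synthesis (right, 20 genes), with its log2 CPM minus the mean of its DMSO libraries on the vertical axis and the 6 libraries of 18 h on the horizontal axis. The library medians (black bars) of mitosis genes are -0.75, -0.85 and -1.07 in C59, those of cholesterol genes -0.58, -0.64 and -0.65, and all DMSO medians lie between -0.04 and 0.04.

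Other metabolic and stress groups were mixed. In the serine, one-carbon and ATF4 list *Slc7a11* (-1.12), *Psat1* (-0.50) and *Mthfd2* (-0.40) fell, and *Trib3* and *Ddit4* (0.73) rose, of 16 tested. Members that fell numbered 6 without C59 replicate 3 and none without DMSO replicate 3. *Slc7a11*, the cystine transporter gene, had 20.7, 27.3 and 28.4 CPM in DMSO and 14, 11.8 and 9.32 CPM in C59 (edgeR, BH-adjusted p = 0.00815, and 0.0506 without DMSO replicate 3). *Trib3*, encoding a pseudokinase induced by stress, had 1.5, 1.56 and 2.04 CPM against 3.88, 3.72 and 4.73 CPM (1.28 ± 0.21, edgeR, BH-adjusted p = 0.0109, lost without DMSO replicate 1 or 2, up to 0.0562). In both genes the groups were apart. Of 18 hypoxia and glycolysis genes 5 rose, from 0.44 (*Slc2a1*) to 0.63 (*Pfkfb3*), and none fell, with a median of 0.41 after 0.10 at 12 h. Without C59 replicate 3 there were 10 that rose and without DMSO replicate 3 none. *Car9* was the 1 member with a negative difference, at 1.89, 1.61 and 1.6 CPM in DMSO and 0.68, 1.03 and 0.95 CPM in C59. Its difference of -0.93 did not pass (edgeR, BH-adjusted p = 0.0711). *Hk2*, the first enzyme gene of glycolysis, gave 52.9, 64.7 and 59.9 CPM in DMSO and 86.3, 77.4 and 86.4 CPM in C59, a positive effect of 0.49 (edgeR, BH-adjusted p = 0.0262) where it had been -1.0 at 12 h.

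*Jun*, an immediate early gene, rose from 102, 101 and 87 CPM in DMSO to 189, 186 and 193 CPM in C59 (0.97 ± 0.09, edgeR, BH-adjusted p = 0.00176), near its 12 h value of 1.02. With *Egr1* (0.77) it was 1 of 2 that rose on a list of 13, and *Fos* (-0.04), *Junb* (0.04) and *Dusp1* (-0.05) were close to 0. Without C59 replicate 2 or any 1 control library only *Jun* rose. The heat shock genes *Hspb1* (0.57), *Hspa8* (0.39) and *Dnajb1* (0.35) rose, 3 of 12, and none did without any 1 control library, C59 replicate 1 or C59 replicate 2. Of 14 p53 targets *Pmaip1* fell and *Zmat3* (0.49) and *Perp* (0.44) rose, while *Cdkn1a* (0.29), *Mdm2* (-0.22) and *Bax* (-0.03) did not pass. Without C59 replicate 3 there were 6 p53 targets that rose, but none without any other 1 library. *Pmaip1*, encoding the death inducer NOXA, had 112, 92.3 and 119 CPM in DMSO and 52.8, 41.3 and 31.3 CPM in C59. All C59 libraries were far below the controls (-1.36 ± 0.18, edgeR, BH-adjusted p = 0.00478), with -0.03 at 12 h and -1.38 at 24 h. Of 14 Notch genes *Hey1* alone fell (-0.67, edgeR, BH-adjusted p = 0.0217), in 2 of the 6 fits without a library, where 3.62% of all genes fell.

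Markers of other cell types were read for the whole list each time. The summed level of 13 surface ectoderm markers was 335 to 350 CPM in DMSO and 453 to 524 CPM in C59. All 13 had a positive difference and 7 rose (3.46% of all genes), from 0.35 (*Epcam*) to 0.82 (*Krt15*). Of 12 macrophage markers tested *Csf1r*, *C1qa* and *C1qb* rose, and all 13 on the list summed to 61 to 61.6 CPM in DMSO and 80.3 to 92.4 CPM in C59. Of 8 tested markers of Schwann cell precursors and neural crest *Erbb3* rose (0.58), and all 9 summed to 91.6 to 101 CPM in DMSO and 124 to 150 CPM in C59. Sums of 11 erythroid markers, 10 of them tested, were 4270 to 5140 CPM in DMSO and 4970 to 7780 CPM in C59, and of 12 endothelial markers 439 to 457 CPM and 463 to 516 CPM, with no tested member of either list past the test. The 6 muscle lineage markers summed to 163 to 174 CPM in DMSO and 119 to 166 CPM in C59. Of 4 tested markers of neurons *Isl1* was called lower, at 4.33, 4.35 and 4.2 CPM against 1.45, 1.14 and 0.947 CPM (-1.86 ± 0.22, edgeR, BH-adjusted p = 0.00271). *Isl1* is a homeobox gene that is also active in limb mesenchyme. Of 9 mesenchyme markers *Msx1* and *Prrx2* (-0.69) fell, and the part of any change in cell composition in the results above was not tested.

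Beyond the lists, the 12 largest increases and 12 largest decreases at 18 h with a mean of at least 1 CPM were read. *Tpm3-rs7*, a copy of the tropomyosin gene *Tpm3*, held 187, 174 and 185 CPM in DMSO and 3.88, 2.12 and 1.59 CPM in C59, while *Tpm3* itself rose from 288, 260 and 271 CPM to 380, 367 and 323 CPM (0.39 ± 0.10, edgeR, BH-adjusted p = 0.0445). *Tpm3-rs7* also jumped between control groups, with a mean of 3.21 ± 0.305 (SD, n = 3) CPM in DMSO at 1 h and 224 ± 28.8 at 6 h, and the assignment of reads between near-identical copies is uncertain. *Rpl26*, a ribosomal protein gene with many processed copies, held 26.6, 28.2 and 34.8 CPM against 316, 171 and 230 CPM, and likewise reached 175 ± 62.1 (SD, n = 3) CPM in DMSO at 6 h. *Gm10320* (3.77) and the histocompatibility gene *H2-D1* (1.67) belong to multigene families, and their values carry the same uncertainty.

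*Padi4*, encoding an enzyme that turns arginine in histones into citrulline, was near 0 in the controls (0.166, 0.0547 and 0.166 CPM) and at 10.3, 8.72 and 14.4 CPM in C59. Its difference of 6.58 ± 0.38 (edgeR, BH-adjusted p = 0.000118) rests on a few counts in DMSO, and the gene also reached 3.62 ± 2.01 (SD, n = 3) CPM in DMSO at 6 h. *Dusp26*, for a phosphatase, rose from 1.33, 1.18 and 0.939 CPM to 3.49, 3.56 and 3.09 CPM (1.55 ± 0.22, edgeR, BH-adjusted p = 0.00592). Increases in *Csmd3*, *Dnah11*, *Epha6*, *Myh7*, *Scml4* and *Slc37a2* lay between 1.60 and 2.35 at mean levels under 4 CPM and lost their adjusted p without 1 or more control libraries. In this order they passed in 4, 2, 5, 5, 4 and 4 of the 6 fits that left out a library. *Dnah11* was also lost without C59 replicate 1 or C59 replicate 2.

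Among decreases, *Zic1*, a zinc finger gene, went from 2.72, 2.41 and 2.71 CPM in DMSO to 0.242, 0.361 and 0.498 CPM in C59 (-2.81 ± 0.30, edgeR, BH-adjusted p = 0.002). *Atp6v1g3*, for a subunit of the proton pump, had 4.05, 4.68 and 5.36 CPM against 0.97, 1.08 and 1.1 CPM (-2.16 ± 0.21, edgeR, BH-adjusted p = 0.00182). *Rfx4* (-3.43), *Myh15* (-3.50), *Vwde* (-3.42), *Kcna4* (-2.20) and *Prokr2* (-2.15) were all under 4 CPM in DMSO and passed in all 6 fits without a library. *Aox3* (-2.22) did so in 3 of them. *Prokr2* had an effect of 0.13 at 12 h, a change of -2.28 (edgeR interaction contrast, BH-adjusted p = 0.00481).

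Between 12 h and 18 h the effect of C59 changed past both thresholds in 286 of 13694 genes (2.09%), 113 upward (0.825%) and 173 downward (1.26%). Genes of at least 1 CPM were ranked if their log2 differences between C59 and DMSO libraries did not overlap between the times. Among these *Ctse*, encoding the protease cathepsin E, had the largest upward change, 6.22 ± 0.52 (edgeR interaction contrast, BH-adjusted p = 1.26e-05), from -5.44 at 12 h to 0.77 at 18 h. At 18 h it stood at 4.88, 3.42 and 7.01 CPM in DMSO and 7.37, 7.95 and 10.2 CPM in C59, and its difference did not pass (edgeR, BH-adjusted p = 0.111). *Stk32a* (-3.44), *Gm4737* (-4.13) and *Eomes* (-3.86), with effects of 3.45 to 4.20 at 12 h, lay between -0.01 and 0.05 at 18 h. These are near 2 CPM or lower. Between 18 h and 24 h, a contrast that shares the 18 h libraries with the one above, 175 of 13794 genes changed (1.27%), 82 upward (0.594%) and 93 downward (0.674%). The largest downward changes were in *Gm10320* (-6.79), *Zfp979* (-6.69), *Zfp984* (-5.17), *Padi4* (-4.86) and *Zfp985* (-4.53). The zinc finger genes lie in a family cluster on chromosome 4, where reads may be shared between copies, and their differences at 18 h were -0.36, 0.08 and -0.49 and did not pass. *Myh15* (2.44), *Rfx4* (2.41), *Kera* (2.31) and *Vwde* (2.21) moved upward.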

How the data were processed

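Forelimb buds of 30 libraries were profiled by RNA-sequencing, and the 3 DMSO and 3 C59 libraries of 18 h, grouped by their labels, were analysed here. The authors trimmed reads with Cutadapt (version 1.16) and mapped them to mm10 with STAR (version 2.7.0e), and the deposited counts are raw fragments per gene of the autosomes without normalization. The deposited FPKM values were computed by the authors with Cufflinks (version 2.2.1, no strand) and served for the check of embryo sex and as an alternative. Of 50833 counted genes, 50628 were matched to GENCODE M21 (the others held 0.00676% of counts), and 20569 protein-coding genes entered the tests.

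Genes passing filterByExpr (minimum count 10, minimum total 15) were tested in edgeR (version 4.0.16, R 4.3.3) with TMM scaling and the quasi-likelihood test, on the 18 h libraries alone, with BH adjustment over all genes tested. SE is the log2 fold change divided by the root of the F statistic. Changes of effect between times were interaction contrasts over 12 libraries. Library totals of 18331160 to 38974885 counts set the precision, and intervals cover the spread between libraries only. Scripts were tested on simulated data.

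Genes named were Axin2, called list members, the extremes of each list, genes the study discussed, and the 12 largest increases and decreases and 5 largest changes of effect each way among genes with at least 1 CPM and separated groups. For changes of effect, separated means that the log2 differences between C59 and DMSO libraries did not overlap between the earlier and the later time. The lists, this comparison and its tests were chosen with earlier results of these data known, and other list members were named after their values were seen. Some of the genes that this rule or the lists select are not reported here. Offsets for GC content and length, and list counts without C59 replicate 3, were alternatives chosen after seeing the data.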

Additional observations from a re-analysis of the deposited data

Results flagged for a closer look

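In 11 genes the effect of C59 had opposite signs at 12 h and 18 h, past the adjusted p at both times and in the test of the change itself (edgeR interaction contrast with BH adjustment), at a mean of at least 10 CPM, a limit set after the data were seen. Without that limit there were 20 such genes. From positive at 12 h to negative at 18 h went the secreted synapse organizer gene *Cbln4* (1.70 to -1.03, a change of -2.72), *Cyp4f16* (0.79 to -1.34, -2.13), and *Rasgef1b* (0.85 to -0.54, -1.39). Likewise went *Msc* (0.63 to -0.91, a change of -1.53) and *Fgfr4* (0.54 to -0.98, -1.51), both known from muscle precursors, and the integrin gene *Itga4* (0.40 to -0.78, -1.17).

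From negative to positive went *Mycn* (-1.25 to 0.35, a change of 1.61), the hexokinase gene *Hk2* (-1.0 to 0.49, 1.49), the chaperone gene *Hspa8* (-0.72 to 0.39, 1.11), the kinase gene *Wnk2* (-0.36 to 0.66, 1.02) and *Tpm3* (-0.63 to 0.39, 1.02), whose reads may be shared with the copy *Tpm3-rs7*. Their adjusted p values for the change lay between 9.27e-06 (*Mycn*) and 0.0164 (*Tpm3*) in edgeR.

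Between 18 h and 24 h the sign turned, by the same criteria, in 3 genes, of 12 without the limit on the level. The mitotic kinase gene *Haspin* went from -0.69 to 0.33 (a change of 1.02) and the kinetochore gene *Spc24* from -0.77 to 0.34 (1.1). *Wfikkn2*, encoding a secreted antagonist of TGFβ family ligands, went from 0.77 to -0.37 (-1.15). *Mycn* at 18 h passed, among fits that left out a library, only without C59 replicate 3. *Hspa8* at 18 h did not pass without any 1 control library, C59 replicate 1 or C59 replicate 2. No gene of the hypoxia and glycolysis list, described above with *Hk2*, rose without DMSO replicate 3. *Fgfr4* passed in all 6 such fits, and for the other flagged genes these fits are not given here.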

How the results depend on the processing

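The 173 calls at 18 h became 949 with no minimum fold change, 268 when all 30 libraries shared the spread, 102 with embryo sex as a term (38 higher, 64 lower), 31 with limma on log2(FPKM + 1) and 11 when the fold threshold itself was tested (glmTreat). Leaving out a library gave 77 (without DMSO replicate 3; 92 without DMSO replicate 1) to 194 (without C59 replicate 3), and upper-quartile scaling gave 92 higher and 87 lower against 74 and 99. For the change of effect from 12 h to 18 h, 286 became 1162 with no minimum fold, 84 with limma on log2(FPKM + 1) and 200 to 321 without a library. From 18 h to 24 h, 175 became 960, 61 and, without a library, 115 (C59 replicate 2 of 24 h) to 219 (C59 replicate 3 of 18 h). *Axin2* ranged from -0.21 to -0.09 without a library and passed only with all 30 libraries (-0.17). Replicate numbers did not pair the samples (correlation of deviations -0.17, 0.06 and -0.09), and the replicate block gave 152 calls at 18 h, 274 and 154 for the changes, and -0.16 for *Axin2*. No named gene turned its sign past the test. The causes of these shifts were not tested, and with 3 libraries a group many small differences may have been missed.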
